A study of Oryza sativa with 3 samples.

Results

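The small RNA library of the OsNAR2.1 RNAi line was set against that of Nipponbare (NP) at the known miRNA precursors of rice. Members were the precursors with a rice MIR name, and 184 of the 478 that had a read in either library were kept because they held 20 or more reads in at least 1 of the pair. In all 3 libraries of the series 516 known precursors had a read, so the members are those of 2 of 3 libraries. The RNAi line carries a construct that silences OsNAR2.1, which encodes the partner protein of high-affinity nitrate transporters, and its construct's promoter and parent variety are not given in the sources used here. NP is the non-transgenic wild type, labelled WT-N, and Ov199, an overexpression line with OsNAR2.1 behind a ubiquitin promoter, serves only for values side by side. All 3 lines grew in field plots in Nanjing with urea as the nitrogen fertilizer, and at blooming each gave a single RNA pool of leaves, flowers and stems, so that a tissue's share of the pool and its level per cell cannot be told apart. Each line gave 1 library and is 1 transgenic line or 1 variety, the label of the RNAi library also holds the short tag Ni, which no source used here explains, and OsNAR2.1 mRNA is not measured by small RNA libraries, so the line labels could not be checked.

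A miRNA precursor is an RNA hairpin from which Dicer-like enzymes cut a short duplex, and 1 strand of it guides an Argonaute protein to matching mRNAs, which in plants are mostly cut. The seed, bases 2 to 8 from the 5′ end, is where pairing begins, so a start moved by a base gives another seed. Families shared by most land plants chiefly target transcription factors and enzymes of nutrient use. Families annotated in rice alone are often young, and some of them yield 24 nt reads that act in RNA-directed DNA methylation. In rice several conserved families respond to nitrate, phosphate, sulfate or copper supply.

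The sequences below are the reads on which the differences between the RNAi and NP libraries turned, with the seed in capitals and the letters as deposited (T for U). The first lines hold the copper-responsive miRNAs, the next those of MIR156 and MIR529, which target the same genes, and the last the sequences that set single precursors apart.
MIR408, 21 nt: cTGCACTGcctcttccctggc
MIR408, 1 base further on: tGCACTGCctcttccctggct
MIR528: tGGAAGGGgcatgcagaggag
MIR397a and MIR397b, 21 nt: tTGAGTGCagcgttgatgaac
MIR397b, 22 nt: tTGAGTGCagcgttgatgaacc
MIR398b, first place: gGGGCGAGctgggaacacacg
MIR398b, downstream place: tGTGTTCTcaggtcgcccctg
MIR156d, f, h and j, 21 nt: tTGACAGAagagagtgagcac
MIR156a to MIR156j, 20 nt: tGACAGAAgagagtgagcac
MIR529a, first place: aGAAGAGAgagagtacagcct
MIR529a, downstream place: gCTGTACCctctctcttcttc
MIR399d, 21 nt: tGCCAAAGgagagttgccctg
MIR399d and MIR399j, 20 nt: tGCCAAAGgagagttgccct
MIR168a, downstream place, 24 nt: gATCCCGCcttgcaccaagtgaat
MIR169g, h, j, l and m: gGCAGTCTccttggctagc
MIR166j, upstream place: gAATGACGtccggtctgaaga
MIR1882e, 24 nt: gAAATGATcttggacgtaatctag
MIR5083, 21 nt: cCAATGGAtccttctgagcct
MIR5083, 27 nt: tAGAAACCaatggatccttctgagcct
The 20 nt and 21 nt forms of MIR156 differ only by the first base, which moves the seed by 1 base, while the pair of MIR399 shares its seed and differs at the 3′ end. Among 226 distinct sequences with 20 or more reads in either library there were 138 seeds, and 36 seeds were shared by several sequences. Only the seed ACCGTAG belonged to more than 1 family, because its single sequence aligned at MIR2871 and MIR5794.

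The libraries held 62724 aligned reads in RNAi and 49341 in NP, against 94154 in Ov199. Where plain reads are given, those of Ov199 therefore run high beside those of RNAi and NP. Levels are given as reads or as normalized reads, which are reads per 1000000 aligned reads of the library, so 1 read was worth 15.9 normalized reads in RNAi and 20.3 in NP. Every RNAi over NP ratio of levels has a 95% exact conditional binomial interval that covers counting error only, since reads without molecular identifiers are not independent molecules and 1 library a line gives no measure of how plants vary. A precursor is called higher or lower past 2-fold, with no test. Totals hold reads at all places of a hairpin, so a total need not be the level of the strand that acts on the named targets. Of the aligned reads, 79.7% in RNAi (95% Wilson interval 79.4 to 80.0%) and 72.2% in NP (71.8 to 72.6%) lay at known precursors, against 73.6% in Ov199, and the rest at predicted ones. Under edgeR's TMM factors, an alternative scaling, every log2 ratio moved by -0.10.

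Across the kept precursors the RNAi library was higher past 2-fold at 19 and lower at 10 of 184, which are 10.3% and 5.43%. With TMM factors the counts were 14 higher and 12 lower. The median ratio over all 184 was 1.05, and 106 intervals held 1. Reads aligned at several places were counted at each, and 14 of the 19 higher and 8 of the 10 lower precursors drew most of their reads from sequences that also aligned elsewhere, so the 29 calls came from 15 families. The read minimum was met in RNAi alone by 18 precursors, of which 4 were called higher, and in NP alone by 9, of which 7 were called lower, and a precursor that passed through 1 library alone is favoured to lean to that side. By family, where a sequence counts once however many members it aligns to, 5 of 85 families (5.88%) were higher past 2-fold and 3 (3.53%) lower. The higher families were MIR408, MIR398, MIR528, MIR1882 and MIR5075, and the lower ones MIR5145, MIR1436 and MIR1861. MIR398 and MIR5075 met the minimum in RNAi alone and MIR5145 and MIR1436 in NP alone, which leaves 3 higher families and 1 lower family among the 73 that met it in both. Nearest to the 2-fold line on the higher side were MIR399d at 2.08 inside and MIR5082 at 1.94 outside, and on the lower side MIR1861j at 0.437 inside and MIR812h at 0.515 outside.

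**Figure D1:**
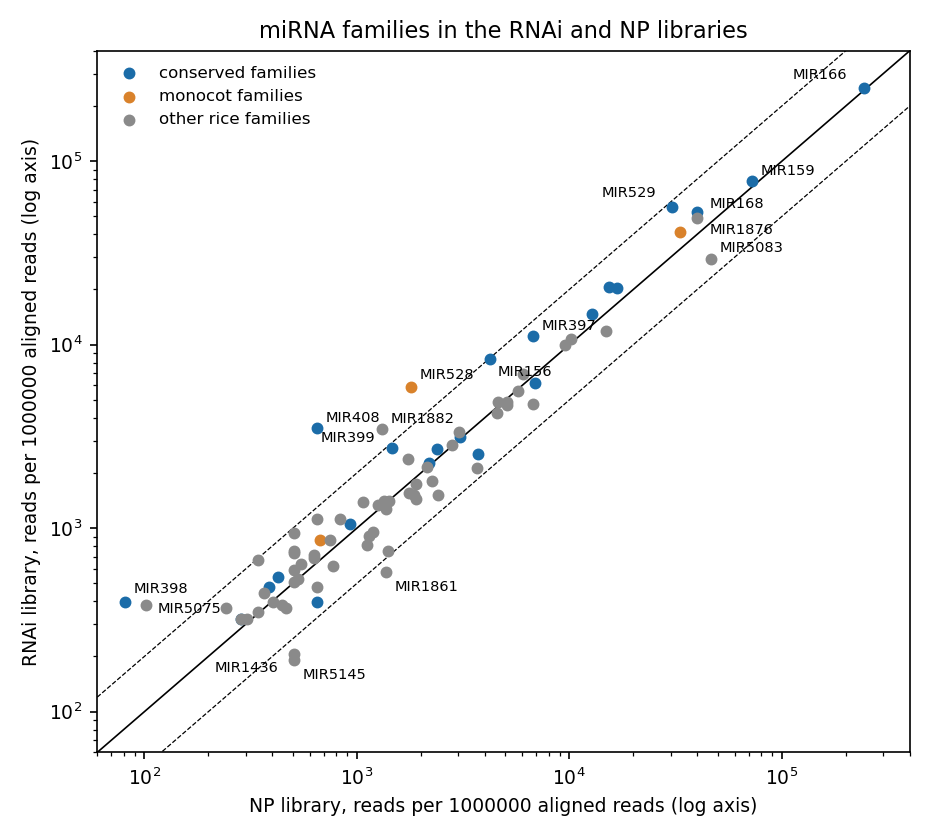
Normalized reads of 85 miRNA families in the RNAi library (vertical, log axis) against the NP library (horizontal, log axis), coloured by class; the solid line marks equal levels and the dashed lines 2-fold. MIR408, MIR398, MIR528, MIR1882 and MIR5075 lie above the upper dashed line and MIR5145, MIR1436 and MIR1861 below the lower one.

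By class, 24 conserved families took 54.0% of aligned reads in RNAi and 46.5% in NP, a ratio of 1.16 (1.14 to 1.18) that TMM factors put at 1.08. The 6 monocot families took 4.82% in RNAi and 3.64% in NP, a ratio of 1.32 (1.25 to 1.40). All other rice families, a remainder of 225 that are for the most part annotated in rice alone, took 20.9% in RNAi and 22.05% in NP, a ratio of 0.947 (0.924 to 0.972). Of 78 conserved precursors 16 were higher and 5 lower, of 6 monocot precursors 1 was higher, and of 100 other rice precursors 2 were higher and 5 lower, beside 10.3% higher and 5.43% lower over all 184. The lower precursor calls were thus as many in the conserved as in the other rice class, and near the share over all. The 5 conserved ones were all MIR169 precursors that share reads. By family, 0 of 22 conserved and 3 of 60 other rice families were lower, beside 3.53% over all 85. The conserved count leans on MIR156, since 10 of the 16 higher precursors belong to that family and share reads.

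Of the 15 target groups the copper-responsive families had the highest ratio, 2.26 (2.03 to 2.52) on 1314 reads in RNAi and 458 in NP. All 4 families were above 1 and 3 of them past 2-fold, beside 5.88% higher over all 85 families. Of their 5 kept precursors 4 were past 2-fold, beside 10.3% higher over all 184. MIR398b and MIR397a met the read minimum in RNAi alone, which favours a higher ratio, and this leaves MIR408 and MIR528 as the calls that the minimum did not favour. These miRNAs lower mRNAs of copper proteins when copper is scarce. MIR408, which targets plantacyanin-type blue copper proteins, had 221 reads in RNAi, 32 in NP and 72 in Ov199, or 3523.4, 648.5 and 764.7 normalized reads. RNAi stood alone at the top, since the other two libraries were close to each other, and the ratio of RNAi to NP was 5.43 (3.74 to 8.14). Both printed MIR408 sequences followed, with 103 reads in RNAi against 16 in NP for the first and 37 against 7 for the start 1 base further on. A 17 nt form with the later start, tGCACTGCctcttccct, had 16 reads in RNAi and 0 in NP and Ov199, and 0 reads allow up to 60.8 normalized reads in NP.

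MIR528, a monocot miRNA that targets copper oxidases such as ascorbate oxidase, had 368 reads in RNAi, 89 in NP and 154 in Ov199. In normalized reads these were 5867.0 in RNAi, 1803.8 in NP and 1635.6 in Ov199, so that RNAi was again alone and the ratio to NP was 3.25 (2.57 to 4.15). The printed MIR528 sequence gave 301 reads in RNAi and 63 in NP, a ratio of 3.76 (2.86 to 5.01). The downstream place of the same precursor did not share this difference, as its sequence cCTGTGCTtgcctcttccatt had 16 reads in RNAi and 16 in NP, a ratio of 0.787 (0.368 to 1.68). The first place thus held 95.7% of MIR528 reads in RNAi (93.1 to 97.3%) and 80.9% in NP (71.5 to 87.7%).

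MIR398b, the single precursor of its family with reads, gives miRNAs against copper/zinc superoxide dismutases. It had 25 reads in RNAi, 4 in NP and 11 in Ov199, a ratio of 4.92 (1.70 to 19.4) on 4 NP reads. When tags of 1 read were removed it fell below the read minimum and was not called, though its ratio was then 7.36 (1.78 to 65.1). Of these reads, the first-place sequence had 11 in RNAi and 1 in NP. The downstream sequence had 4 in RNAi and 2 in NP, a ratio of 1.57 (0.226 to 17.4), whose interval held 1. Which of these 2 sequences acts on the superoxide dismutases was not tested. MIR397, which targets laccases of the cell wall, was the most abundant copper family, with 700 reads in RNAi, 333 in NP and 364 in Ov199 and a ratio of 1.65 (1.45 to 1.89). Scaled to aligned reads, 94154 in Ov199 against 49341 in NP, its level in Ov199 was below that in NP. Nearly all of it was MIR397b, at 698 reads in RNAi and 333 in NP. MIR397a, at 32 reads in RNAi and 12 in NP, passed 2-fold at 2.1 (1.05 to 4.47) but shared most of its reads with MIR397b, and it was not called with TMM factors, with 20 to 24 nt reads, with shared reads split or by Fisher's exact test.

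**Figure D2:**
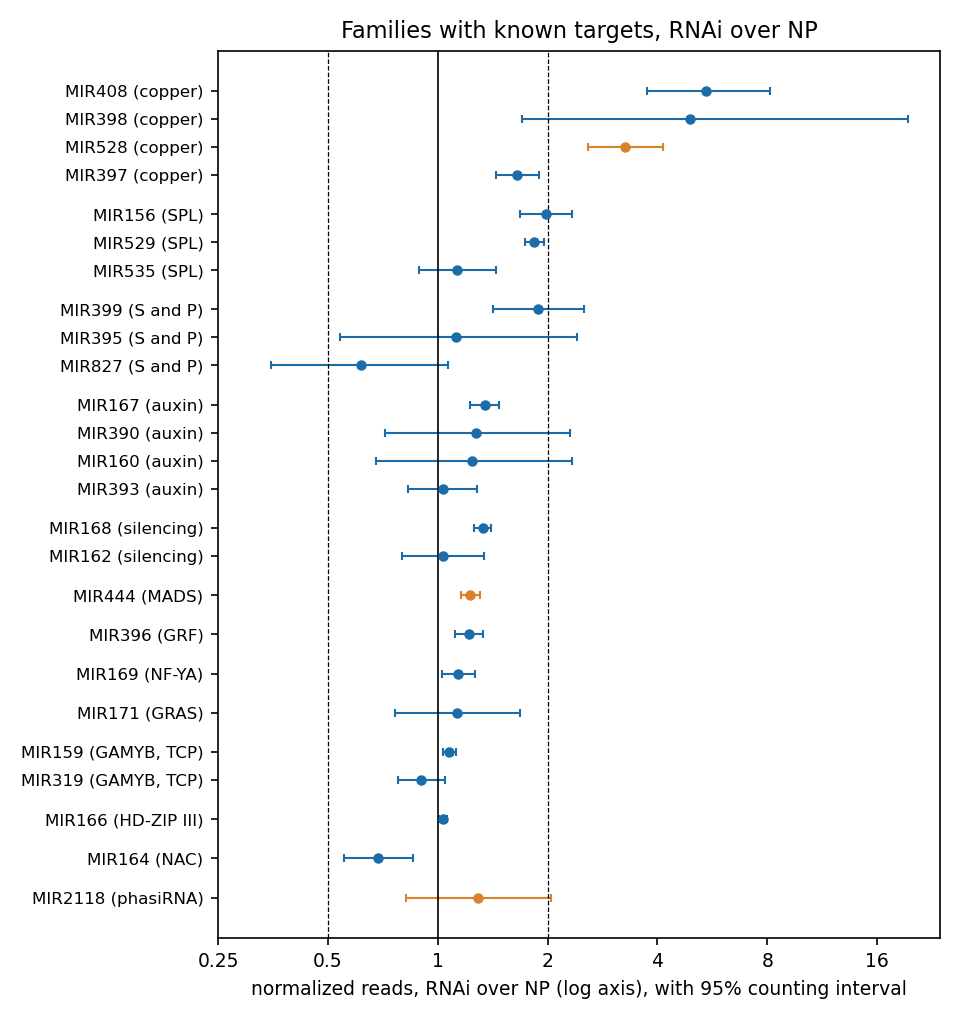
RNAi over NP ratio of normalized reads for the 25 families with known target groups (log axis), as points with 95% counting intervals, blue for conserved and orange for monocot families, ordered by target group; dashed lines mark 2-fold either way. MIR408, MIR398 and MIR528 lie past 2-fold, MIR156 just under it at 1.98, and MIR164 is below 1 with an interval that leaves out 1.

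The families that target SPL transcription factors, which set the change to flowering and the branching of tillers and panicles, were above NP as a group, at 1.81 (1.71 to 1.91). Of their 14 precursors 11 were higher past 2-fold, beside 10.3% over all 184, and MIR156f, MIR156h and MIR529b among these were not called with TMM factors. By family, where shared reads count once, 0 of 3 were past 2-fold, beside 5.88% higher over all 85. MIR156 had 523 reads in RNAi, 208 in NP and 733 in Ov199, or 8338.1, 4215.6 and 7785.1 normalized reads, and the RNAi to NP ratio was 1.98 (1.68 to 2.33). NP was the low library here, and RNAi and Ov199 lay close together. MIR156a to MIR156j were all past 2-fold, from 2.13 for MIR156f and MIR156h, which hold identical reads, to 2.48 for MIR156e. These 10 precursors are not separate measurements, because the 20 nt sequence aligned at all of them, with 64 reads in RNAi and 21 in NP, and the 21 nt sequence aligned at 4, with 196 reads in RNAi and 71 in NP. A 22 nt form with the same start, tTGACAGAagagagtgagcact, had 53 reads in RNAi and 11 in NP, a ratio of 3.79 (1.96 to 8.05). The remaining kept member, MIR156l, had 14 reads in RNAi and 21 in NP, a ratio of 0.524 (0.247 to 1.08).

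The excess of MIR156 lay at the first place of the hairpins. Reads there summed to 6361.2 normalized reads in RNAi and 2918.5 in NP, a ratio of 2.18 (1.80 to 2.66), and reads at the downstream place to 135 in RNAi and 85 in NP, a ratio of 1.25 (0.945 to 1.66). At MIR156f and MIR156h the first place held 91.7% of reads in RNAi (88.6 to 94.0%) and 78.2% in NP (70.9 to 84.0%), with intervals that did not overlap. If only reads of 20 to 24 nt were counted, the change in library totals alone shifted log2 ratios by -0.15, and each member's own counts changed as well. MIR156d and MIR156j alone of the 10 were then still called, and the same held when shared reads were split equally over precursors. Splitting left 143 precursors at the read minimum in place of 184, so a call could also end through the minimum.

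MIR529, which targets the same SPL genes and is known for panicle branching in grasses, was far more abundant, with 3526 reads in RNAi, 1507 in NP and 3679 in Ov199. That made 56214.5 normalized reads in RNAi, 30542.6 in NP and 39074.3 in Ov199, and RNAi over NP was 1.84 (1.73 to 1.96). The places of MIR529a had close ratios, at 1.84 (1.73 to 1.96) for the first and 1.83 (1.37 to 2.48) for the downstream place. The leading sequence had 2842 reads in RNAi and 1227 in NP, and the downstream sequence 117 in RNAi and 43 in NP. MIR529b, with 89 reads in RNAi and 33 in NP, passed 2-fold at 2.12 (1.41 to 3.27) on a sequence that also aligned at MIR529a, gAGAAGAGagagagtacagcct with 87 reads in RNAi and 33 in NP, and it was not called with exact matches alone or with 20 to 24 nt reads. MIR535, a related SPL regulator, had 170 reads in RNAi and 118 in NP, a ratio of 1.13 (0.891 to 1.45).

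Families of phosphate and sulfate supply lay on both sides of 1. MIR399, which lowers the ubiquitin-conjugating enzyme PHO2 when phosphate is short, had 2742.2 normalized reads in RNAi, 1459.2 in NP and 828.4 in Ov199, a ratio of 1.88 (1.42 to 2.51). MIR399d passed 2-fold with 148 reads in RNAi and 56 in NP, a call that ended with TMM factors, with exact matches alone, with tags of 1 read removed and with 20 to 24 nt reads. MIR399j had 110 reads in RNAi and 60 in NP, a ratio of 1.44 (1.04 to 2.01). The printed 21 nt form, which ends in g and aligned at MIR399d alone, had 35 reads in RNAi, 2 in NP and 17 in Ov199. The 20 nt form without that last base, which aligned at both, had 23 reads in RNAi and 14 in NP, a ratio of 1.29 (0.637 to 2.72). MIR827, which targets SPX-domain phosphate transporters, had 25 reads in RNAi, 32 in NP and 83 in Ov199, a ratio of 0.615 (0.349 to 1.07). MIR395, which targets ATP sulfurylases and a sulfate transporter, had 20 reads in RNAi and 14 in NP over the family, and no precursor of it reached the minimum.

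MIR169, which targets NF-YA transcription factors and responds to nitrogen supply in several plants, was split. The family had 918 reads in RNAi, 634 in NP and 1715 in Ov199, a ratio of 1.14 (1.03 to 1.26). MIR169a made up most of it, with 881 reads in RNAi and 546 in NP, a ratio of 1.27 (1.14 to 1.42). Its most read sequence, aTCGGAGGccatggtgcagcc, held 71.4% of its reads in RNAi and 75.3% in NP. All other MIR169 precursors together had 37 reads in RNAi, 88 in NP and 289 in Ov199, a ratio of 0.331 (0.219 to 0.491), so these members were low in RNAi and high in Ov199. The 5 kept among them, MIR169g, h, j, l and m, were lower past 2-fold, at 0.268 to 0.274, and rest for the most part on the printed 19 nt sequence with 11 reads in RNAi, 39 in NP and 67 in Ov199. All 5 met the minimum in NP alone, which fixed their side, and none was called with 20 to 24 nt reads or with shared reads split. MIR169f, below the minimum, had 2 reads in RNAi, 11 in NP and 37 in Ov199, a ratio of 0.143 (0.0154 to 0.655). Another sequence, tAGCCAAGgatgacttgcct, which aligned at MIR169f to MIR169m, had 1 read in RNAi, 1 in NP and 5 in Ov199. Which of these sequences acts on NF-YA was not tested.

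Of the large developmental families, MIR166 and MIR159 differed little in total. MIR166, which targets the HD-ZIP III factors of leaf polarity and vascular tissue, had 15755 reads in RNAi and 11973 in NP, a ratio of 1.04 (1.01 to 1.06) that was below 1, at 0.963, with TMM factors. MIR159, which targets GAMYB factors of anther development, had 4899 reads in RNAi and 3578 in NP, a ratio of 1.08 (1.03 to 1.12) that TMM factors put at 1.00. This total joined sequences on both sides of 1. Those with the seed GCTGCTG had 2535 reads in RNAi and 1603 in NP, a ratio of 1.244 (1.168 to 1.325). Those with the seed TTGGATT had 1427 in RNAi and 1188 in NP, a ratio of 0.945 (0.874 to 1.021), whose interval held 1. Action of either seed on GAMYB mRNAs was not tested. The member MIR159f was lower, with 142 reads in RNAi and 183 in NP, a ratio of 0.610 (0.487 to 0.764). MIR319, which targets TCP factors, had 390 reads in RNAi and 340 in NP, a ratio of 0.902 (0.778 to 1.05).

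Within these families single forms differed more than the sums. The main MIR166c and MIR166j sequence, tTCGGACCaggcttcattccc, had 4428 reads in RNAi and 3657 in NP, a ratio of 0.953 (0.912 to 0.995). The form that starts 1 base later, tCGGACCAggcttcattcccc, had 3572 reads in RNAi and 2307 in NP, a ratio of 1.22 (1.16 to 1.28). At MIR319b the 22 nt cTTGGACTgaagggtgctccct had 177 reads in RNAi, 204 in NP and 448 in Ov199, and its 21 nt form tTGGACTGaagggtgctccct, which also aligned at MIR319a, had 128, 50 and 183. The first start thus took 51.1% of exact MIR319b reads in RNAi (45.9 to 56.3%) and 72.2% in NP (66.7 to 77.0%), with 63.8% in Ov199. Start positions could be compared at 66 precursors, of which 41 were conserved. The share of a leading start had intervals that did not overlap between RNAi and NP at 12, of which 11 were conserved. Of these, 7 were MIR166 precursors that share reads. The MIR166j upstream sequence printed above had 5 reads in RNAi, 28 in NP and 70 in Ov199, a ratio of 0.141 (0.0424 to 0.369).

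MIR168 and MIR162 act on the miRNA machinery itself, through ARGONAUTE and Dicer-like mRNAs. MIR168 had 3310 reads in RNAi and 1962 in NP, a ratio of 1.33 (1.25 to 1.40). At MIR168a the first place had a ratio of 1.27 (1.19 to 1.36) and the downstream place 1.44 (1.30 to 1.59). The downstream 24 nt sequence reached 2.18 (1.66 to 2.88), with 202 reads in RNAi and 73 in NP. MIR162 had 142 reads in RNAi and 108 in NP, a ratio of 1.03 (0.80 to 1.34).

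In the auxin group all 14 kept precursors were above 1, except that MIR393a and MIR393b were below 1 with TMM factors, and none was past 2-fold. MIR167, which targets auxin response factors, had 1299 reads in RNAi and 759 in NP, a ratio of 1.35 (1.23 to 1.47), and its precursors ran from 1.14 to 1.40 with many reads in common. MIR393, MIR160 and MIR390, which act on auxin receptors, auxin response factors and a trans-acting siRNA precursor, had 198, 30 and 34 reads in RNAi and 151, 19 and 21 in NP, and all of their intervals held 1. MIR164, which targets NAC factors of organ boundaries and root branching, ran the other way. It had 160 reads in RNAi, 183 in NP and 221 in Ov199, or 2550.9, 3708.9 and 2347.2 normalized reads, so NP was the high library. The RNAi to NP ratio was 0.688 (0.553 to 0.855), and the 3 kept MIR164 precursors lay between 0.682 and 0.699.

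MIR444 is a monocot family that targets MADS-box genes, among them relatives of the nitrate signalling gene ANR1. It had 2573 reads in RNAi, 1645 in NP and 4025 in Ov199, a ratio of 1.23 (1.16 to 1.31). Its precursors lay on both sides of 1. MIR444b and MIR444c were at 1.30 and 1.28. MIR444a, d and e were at 0.762, 0.712 and 0.644, on 36 to 105 reads in RNAi and 44 to 116 in NP, and the intervals of 2 of them held 1. The 22 nt gTGCAGTTgttgtctcaagctt led MIR444b and MIR444c in RNAi with 858 reads against 417 in NP, a ratio of 1.62 (1.44 to 1.82). In NP the 21 nt tGCAGTTGttgtctcaagctt led, at 13136.9 normalized reads in RNAi and 10842.9 in NP, a ratio of 1.21 (1.09 to 1.35). The share of 22 nt reads in the monocot class was 33.7% in RNAi (32.0 to 35.4%) and 28.7% in NP (26.6 to 30.8%).

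MIR396, which targets growth-regulating factors, had 1286 reads in RNAi and 829 in NP, a ratio of 1.22 (1.12 to 1.33), and all 8 of its kept precursors were above 1. MIR396g was past 2-fold at 2.57 (1.28 to 5.61), with 36 reads in RNAi, 11 in NP and 47 in Ov199, almost none of them its own. It met the minimum in RNAi alone and was not called with 20 to 24 nt reads or with shared reads split. MIR171, which targets GRAS factors, had 66 reads in RNAi and 46 in NP, and MIR2118, a trigger of phased siRNAs in young panicles, 54 in RNAi and 33 in NP, and both intervals held 1.

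Among the other rice families the calls rested on few members. MIR1882e had 216 reads in RNAi, 65 in NP and 0 in Ov199, or 3443.7, 1317.4 and 0 normalized reads, and the RNAi to NP ratio was 2.61 (1.97 to 3.50). The 0 reads in Ov199 allow up to 31.9 normalized reads. Its 24 nt sequence had 130 reads in RNAi and 17 in NP, a ratio of 6.02 (3.62 to 10.6), and the 23 nt form that begins a base later 27 in RNAi and 5 in NP. A form aligned with a mismatch, aAATGATCttggacgtaatctaga, had 12 reads in RNAi and 10 in NP. With exact matches alone the family ratio was 4.54. MIR5075 had 24 reads in RNAi, 5 in NP and 30 in Ov199, a ratio of 3.78 (1.41 to 12.7). It was not called with exact matches alone, with tags of 1 read removed or with 20 to 24 nt reads. Under these settings a member that falls below the read minimum is left out whatever its ratio.

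The lower members of this class were MIR1861, MIR5145, MIR1436 and MIR818b. MIR1861 had 36 reads in RNAi, 68 in NP and 83 in Ov199, or 573.9, 1378.2 and 881.5 normalized reads. The RNAi to NP ratio was 0.417 (0.270 to 0.633), through MIR1861h and MIR1861j, which share most reads. These precursors had 32 and 30 reads in RNAi and 62 and 54 in NP. MIR5145 had 12 reads in RNAi and 25 in NP, MIR1436 13 in RNAi and 25 in NP, and MIR818b 22 in RNAi and 41 in NP. These last 3 were not called with exact matches alone, and MIR1436 was also not called with tags of 1 read removed, 20 to 24 nt reads or shared reads split. No precursor called lower held more than 62 reads in either library.

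**Figure D3:**
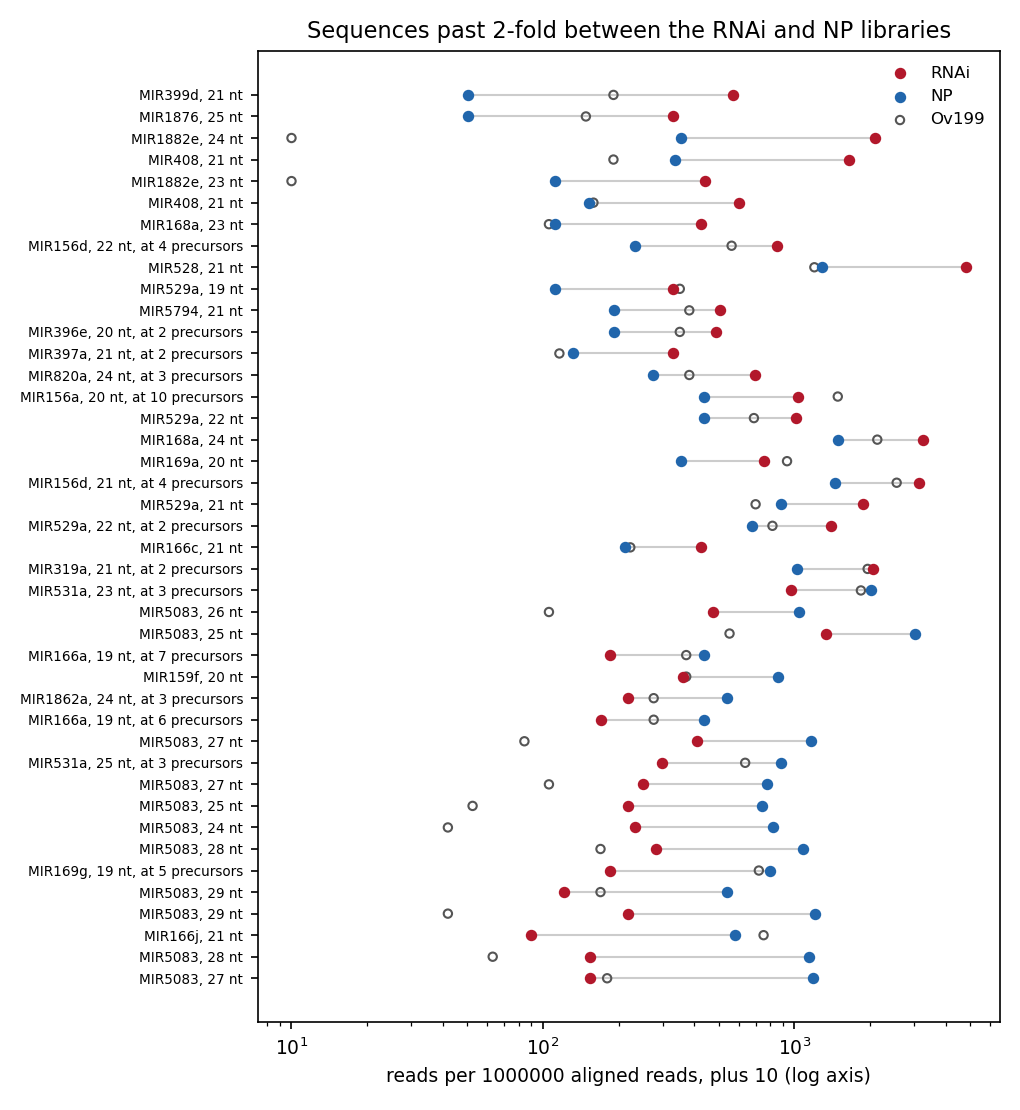
Normalized reads plus 10 (log axis) of the 42 distinct sequences past 2-fold between RNAi (red) and NP (blue), with Ov199 as open circles, named by a precursor at which each aligned and by length and ordered by ratio. The 23 sequences at the top are higher in RNAi and the 19 at the bottom lower, and 11 of the 19 belong to MIR5083.

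Counted as distinct sequences, 23 of 226 (10.2%) were higher past 2-fold in RNAi and 19 (8.41%) lower, and the median ratio over all 226 was 1.13. Of the 23 higher ones 18 belonged to conserved or monocot families, beside 139 conserved and 13 monocot sequences among all 226. Of the 19 lower ones 11, all 24 to 29 nt long, came from MIR5083, which held 20 of the 226.

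Among precursors whose interval lay below 1, MIR5083 held the most reads, with 1846 reads in RNAi, 2300 in NP and 1770 in Ov199, or 29430.5, 46614.4 and 18799.0 normalized reads, and a ratio of 0.631 (0.594 to 0.672). The difference changed side with read length. At 21 nt it had 488 reads in RNAi and 299 in NP, a ratio of 1.28 (1.11 to 1.49), and at 22 nt or more 1152 reads in RNAi and 1836 in NP, a ratio of 0.494 (0.458 to 0.532). Of its 20 sequences 17 contain the printed 21 nt sequence with more bases at an end, and 16 of these 17 were below 1. The 21 nt sequence itself had 469 reads in RNAi, 283 in NP and 562 in Ov199, against 9, 58 and 16 for the printed 27 nt sequence. The leading start took 32.9% of exact reads in RNAi (30.5 to 35.3%), 16.5% in NP (14.9 to 18.3%) and 36.9% in Ov199, so NP was the library set apart.

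**Figure D4:**
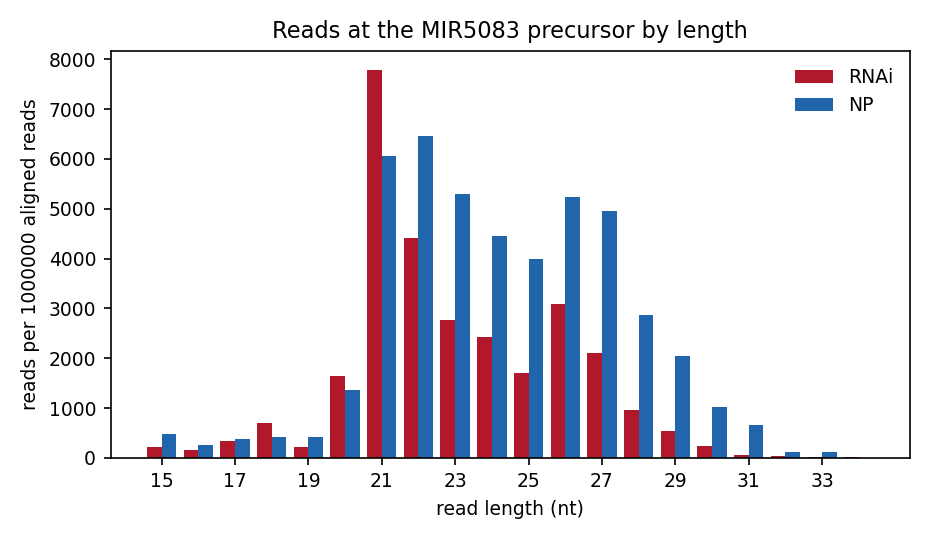
Normalized reads at the MIR5083 precursor by read length in RNAi (red) and NP (blue). RNAi is above NP at 21 nt and below it at every length from 22 to 31 nt.

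Other abundant rice families were nearer to 1 or slightly apart from it. MIR1876, a 24 nt miRNA, had 3093 reads in RNAi and 1967 in NP, a ratio of 1.24 (1.17 to 1.31). MIR5077 had 677 reads in RNAi and 500 in NP, and MIR820, which lies in transposons and targets a DNA methyltransferase gene, 628 in RNAi and 469 in NP, and both intervals held 1. MIR812, derived from inverted-repeat transposons, had 748 reads in RNAi and 737 in NP, a ratio of 0.798 (0.720 to 0.885). The 18 repeat-derived families listed together had 2194 reads in RNAi and 1879 in NP, a ratio of 0.918 (0.863 to 0.977). Of their 36 kept precursors MIR818b alone was called, with a median of 0.969 beside 1.05 over all 184. MIR439, MIR810, MIR814, MIR815, MIR816 and MIR818 lay between 0.787 and 1.34 with intervals that held 1.

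At some rice families it was Ov199 that stood apart. MIR5795 had 134 reads in RNAi, 181 in NP and 3 in Ov199, an RNAi to NP ratio of 0.582 (0.462 to 0.732). With exact matches alone its ratio was 0.255 (0.00486 to 3.175), a wide interval that held 1. Few MIR5795 reads were exact, so its totals rest mostly on reads aligned with a mismatch or gap. MIR1881 had 20 in RNAi, 15 in NP and 0 in Ov199. In contrast RNAi was the low library at MIR1425 and MIR531. MIR1425, which targets pentatricopeptide-repeat genes, had 95 reads in RNAi, 119 in NP and 306 in Ov199, a ratio of 0.628 (0.474 to 0.829). MIR531 had 300 reads in RNAi, 333 in NP and 621 in Ov199, a ratio of 0.709 (0.604 to 0.831). Its reads of 23 to 25 nt made 2487.1 normalized reads in RNAi and 4681.7 in NP, a ratio of 0.531 (0.431 to 0.654). Its 22 nt sequence cTCGCCGGggctgcgtgccgcc had 59 reads in RNAi and 51 in NP, while the 25 nt cTCGCCGGggctgcgtgccgccata had 18 in RNAi and 43 in NP.

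The known precursors that the study followed by RT-PCR can be read side by side. For miR169f, miR529a and miR1882e-3p the study compared NP, Ov199 and RNAi. Its RT-PCR of miR1874 and miR5150 compared nitrogen supplies in hydroponic Nipponbare seedlings, not the lines. MIR169f, MIR529a and MIR1882e are given above. MIR5150 had 13 reads in RNAi, 10 in NP and 12 in Ov199, of which 13 in RNAi and 4 in NP lay at the first place. Its sequence aGCTTCTGacagctgcagtttctc had 11 reads in RNAi, 2 in NP and 1 in Ov199. MIR1874 had 17 reads in RNAi, 14 in NP and 48 in Ov199, and its sequence tATGGATGgaggtgtaacccgatg 8, 6 and 27. Neither reached the minimum, and between RNAi and NP the intervals of their totals held 1.

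Which sequence led a precursor was mostly the same in both libraries. The most read sequence was shared at 74 of 78 conserved precursors but at 46 of 100 other rice precursors, where another 14 were tied and the leading sequence held a median of 21% of reads in RNAi and 23.5% in NP. In the conserved class the median was 49.3% in RNAi and 50.3% in NP. Of 68 precursors with 20 or more reads outside the main place, 9 had main-place shares whose intervals did not overlap. Besides MIR528, MIR156f and MIR156h these included MIR812q, where the main place held 62 of 69 reads in RNAi and 59 of 87 in NP, and MIR7694, where it held 23 of 30 in RNAi and 11 of 32 in NP.

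Over all known precursors, reads of 21 nt made up 50.6% in RNAi (50.2 to 51.1%) and 48.1% in NP (47.6 to 48.6%), a ratio of shares of 1.05 (1.04 to 1.07, by a normal approximation on the log scale). Reads of 24 nt made up 13.0% in RNAi and 13.2% in NP, a ratio of 0.990 (0.956 to 1.03). Within the conserved class the 21 nt share was 63.1% in RNAi (62.6 to 63.7%) and 62.8% in NP (62.2 to 63.5%). Within the other rice families the 24 nt share was 39.9% in RNAi (39.0 to 40.7%) and 36.3% in NP (35.4 to 37.2%), and reads of 26 to 36 nt were 560 in RNAi and 928 in NP, of which MIR5083 held 443 in RNAi and 839 in NP. Among 24 nt reads of the other rice families A came first in 81.9% in RNAi and 80.9% in NP, and among conserved 21 nt reads T came first in 66.2% in RNAi (65.6 to 66.9%) and 71.2% in NP (70.4 to 71.9%). The first base of conserved 21 nt reads was A in 23.2% in RNAi and 18.0% in NP, and the leading MIR529a sequence, which begins with A, made up 2842 of the 4969 such reads in RNAi and 1227 of the 2592 in NP.

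**Figure D5:**
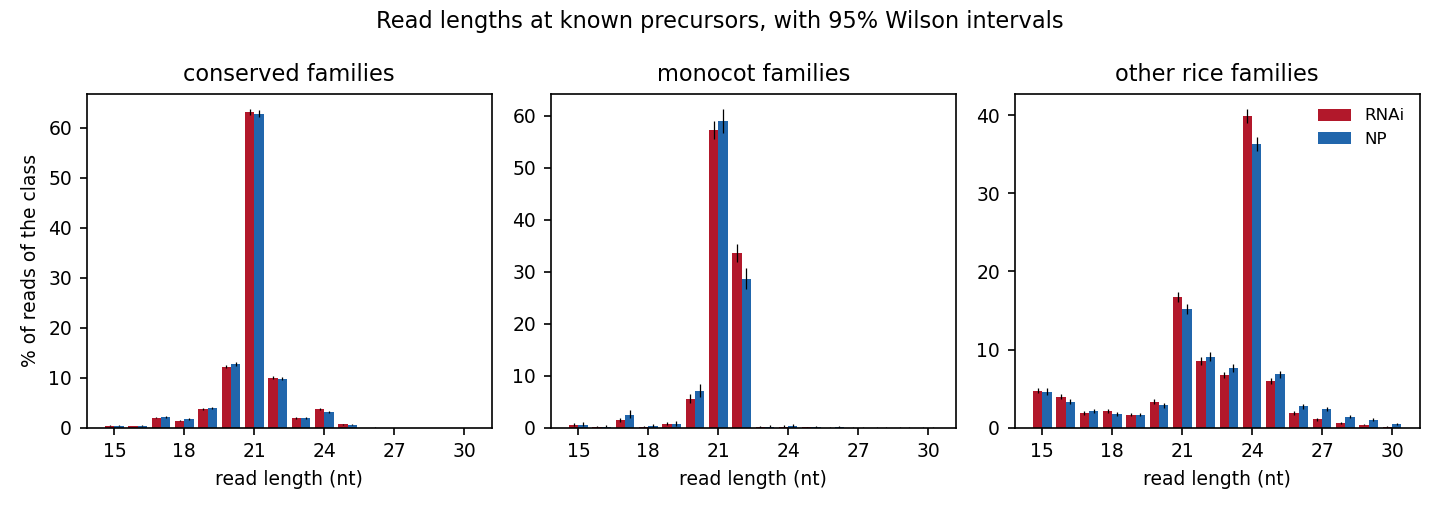
Share of reads by length (nt) in conserved, monocot and other rice families, in RNAi (red) and NP (blue), with 95% Wilson intervals. Conserved reads peak at 21 nt in both libraries, the 22 nt share of monocot families is 33.7% in RNAi and 28.7% in NP, and other rice families peak at 24 nt.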

How the data were processed

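Leaves, flowers and stems were pooled for 1 small RNA library per line. Sequences left after the authors' quality and adapter filters were merged into tags with read numbers and placed on known and predicted precursors, and the deposited files give raw counts per tag and the start of each alignment. The files are named for novoalign, whose version and settings, like the genome build, are not given in the sources used here. They hold precursor-aligned reads of 15 to 36 nt only.

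Counts were summed with Python 3.11.15, pandas 2.3.3 and scipy 1.17.1, each tag a single time per precursor and per family, and every alignment in the files was used, whether exact or with 1 mismatch or gap. Ratios were scaled to all distinct-tag reads. No test between lines was possible with 1 library each. The interval code was tested on simulated data. No hairpin sequences were used, so a place is described by read starts, within 20 bases of the most read start or outside. Shares have 95% Wilson intervals. Scaling alternatives used edgeR 4.0.16 and DESeq2 1.42.0 factors (R 4.3.3) and adapter-trimmed totals.

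The text names families of 500 or more reads, those of the target groups with 20 or more, precursors past 2-fold with 100 or more reads, the 10 largest folds each way and the precursors the study tested by RT-PCR. Members and lists were chosen with earlier results of these data known. The counts by distinct sequence, seeds, starts and first bases were chosen after seeing the data, and so were the further sequences and families named for contrast.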

Additional observations from a re-analysis of the deposited data

How the results depend on the processing

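No paired analysis was possible because each line has 1 library, and for the same reason no replicate could be left out. The counts of 19 higher and 10 lower precursors became 47 and 18 with a minimum of 10 reads, 100 and 79 with no minimum, and 47 and 22 by Fisher's exact test, which compares libraries and not lines. Other settings gave 2 lower with a minimum of 50, 6 higher with reads of 20 to 24 nt, and 10 higher and 5 lower with reads split over their places. For the 5 higher and 3 lower families the counts were 12 and 5 (minimum 10), 3 and 1 (minimum 50), 49 and 41 (no minimum), 19 and 10 (Fisher), and 1 lower with exact matches. The conserved ratio was 1.08 with TMM factors, 1.14 with adapter-trimmed totals, 1.13 with exact matches and 1.055 with 20 to 24 nt. The monocot ratio was 1.23 with TMM and 1.21 with 20 to 24 nt, and the other rice ratio 0.881 and 0.905. With exact matches the 21 nt and 24 nt share ratios were 1.04 and 1.03. Among 24 families tried under each setting (23 where MIR166 was left out of the totals), directions changed for MIR166 with TMM and for MIR166 and MIR159 with 20 to 24 nt. MIR156 crossed 2-fold when MIR166 was left out of the totals (2.00) or tags of 1 read were removed (2.06). MIR5795 was at 0.255 with exact matches, with an interval (0.00486 to 3.175) that held 1, and MIR827 at 0.481 with 20 to 24 nt. Of the 478 precursors with reads 294 stayed below the minimum and were not compared, and shared reads make precursors of a family dependent.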
